A study of Homo sapiens with 12 samples.

Results

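The genes described here are 58 genes of human chromosome 21. They were chosen by measured values of one cell line, SKM-1, where chromosome 21 had the highest median log2 ratio of NUDT21 knockdown to control of all chromosomes. The SKM-1 contrast is therefore not independent of the choice, and every SKM-1 difference below is a description without a test. The second line, MUTZ-1, was not used in that choice, and its contrast was tested. Of the 58 genes, 57 had a row among the 17518 gene rows of the count table, and EVA1C was not analysed here. By annotation, 168 rows lay on chromosome 21, so 111 rows of the chromosome were outside the list. A gene entered the comparison of a line at a mean of 5 or more CPM (counts scaled to the library total, before scaling factors) in both groups of that line. In MUTZ-1 52 of the 57 genes met that level, and in SKM-1 52 did. The level was met in both lines by 50 genes, in MUTZ-1 alone by APP and TIAM1, in SKM-1 alone by NRIP1 and CBR1, and in neither by HUNK, CBR3 and PDE9A.

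MUTZ-1 and SKM-1 are human lines labelled as myelodysplastic syndrome cells from marrow. In each line, cells with a short hairpin RNA (shRNA) against NUDT21 formed the knockdown group, and cells with a control shRNA formed the control group, with 3 RNA sequencing libraries in each of the 4 groups. The genotype label marks the control cells as WT, and all cells were grown in the same medium with serum and antibiotics. Every knockdown library carries the same hairpin name in its label. How many cell clones stood behind a group, whether the 3 libraries of a group came from separate cultures, and how long the hairpin had been expressed were not given in the sources used here, and a p-value here speaks only for the spread among the sequenced libraries, which may be technical.

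Chromosome 21 is the smallest human autosome, and its extra copy causes Down syndrome. Cells with an extra chromosome usually carry more mRNA of many genes spread along it, so a shift shared by neighbours of unrelated function is commonly read as a first, indirect sign of a change in DNA dosage, while regulation of single genes leaves the neighbours where they were. Gains of chromosome 21 are common in myeloid and lymphoid leukaemia, and the chromosome carries ribosome assembly genes, enzymes and carriers of purine and folate metabolism, and regulators such as DYRK1A and ETS2. NUDT21 encodes a subunit of cleavage factor Im, which binds nascent transcripts near their 3′ end and helps to select the poly(A) site. DNA copy number was not measured in these samples, and in bulk RNA fewer cells of a type and less RNA per cell cannot be told apart.

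NUDT21 itself was lower in every knockdown library. In MUTZ-1 it had 135, 136 and 142 CPM in knockdown cells, against 301, 297 and 301 CPM in control cells, which left 46.1% (log2 fold change -1.12 ± 0.03 SE, edgeR adjusted p = 1.01e-94). In SKM-1 it had 131, 132 and 129 CPM in knockdown cells, against 322, 336 and 344 CPM in control cells, which left 39.2%. These and all later CPM are scaled by TMM factors, which run between 0.959 and 1.06. The libraries held 15843012 to 18426619 counts. Of 10 myeloid markers, the number over 5 CPM was 2 in MUTZ-1 knockdown and 2 in MUTZ-1 control cells, and 5 in SKM-1 knockdown and 3 in SKM-1 control cells. MPO, a defining gene of the myeloid lineage, was at 0 in MUTZ-1 knockdown, MUTZ-1 control and SKM-1 knockdown cells and at 0.018 CPM in SKM-1 control cells. Some other myeloid markers were present. SPI1 had 69.7 CPM in MUTZ-1 knockdown and 79.9 CPM in MUTZ-1 control cells, and 26.2 and 9.36 CPM in the same SKM-1 groups. CD33 had 39.8 CPM in SKM-1 knockdown and 8.55 CPM in SKM-1 control cells, but 0.10 and 0.19 CPM in the same MUTZ-1 groups. CEBPA went the other way in SKM-1, with 0.33 CPM in knockdown and 0.74 CPM in control cells. In MUTZ-1 it had 6.15 CPM in knockdown and 6.39 CPM in control cells. Of 10 markers of the B lineage, 9 in MUTZ-1 knockdown and 10 in MUTZ-1 control cells were over 5 CPM, against 1 in each SKM-1 group.

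In SKM-1, the chromosome 21 genes took a larger part of all counts in the knockdown libraries. The 57 rows together held 0.722% ± 0.0031 of all counts in knockdown cells, against 0.456% ± 0.0017 in control cells (SD, n = 3 libraries each). In MUTZ-1 they held 0.5775% ± 0.0015 in knockdown cells and 0.5772% ± 0.0039 in control cells, so the groups overlapped there. Within SKM-1 the libraries of a group lay close together and the groups were far apart.

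**Figure D1:**
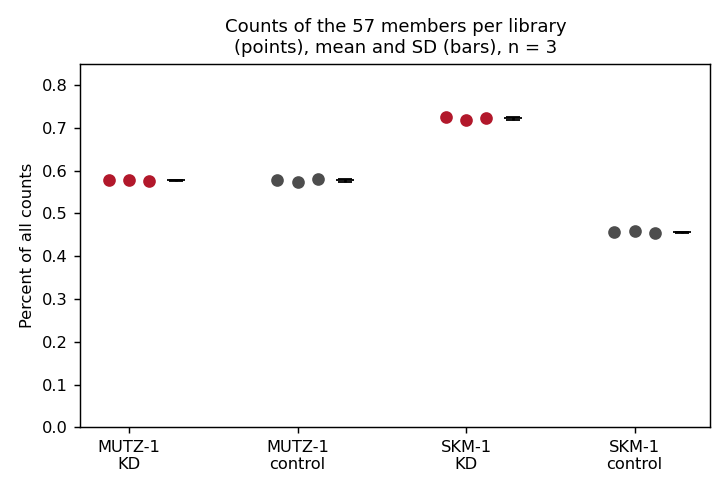
Share of all counts that fell on the 57 chromosome 21 rows, in percent, in each library (points), with the mean and SD of 3 libraries beside them. The SKM-1 knockdown libraries average 0.722% and the SKM-1 controls 0.456%, while the MUTZ-1 knockdown libraries average 0.5775% and the MUTZ-1 controls 0.5772%.

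The median log2 fold change of the 52 SKM-1 genes was 0.63, which is a fold of 1.54, with an interquartile range of 0.14 to 1.03. Over all 9640 genes at the same level the median was 0.13. The single genes spread widely, between -1.65 and 2.24 with an SD of 0.71, and the SD over all genes was 0.92. Measured against the mean of the 3 controls, the median of the genes was 0.66, 0.59 and 0.63 in the 3 knockdown libraries. For the 3 control libraries, each measured against the mean of the other controls, the median was -0.0049, -0.00038 and 0.0090.

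Of the 52 genes, 41 had a log2 fold change above 0 in SKM-1, beside 57.6% of all genes at this level, and 11 lay below 0, beside 42.4%. A fold of at least 1.5 upward was seen in 27 genes (25.4% of all genes) and downward in 2 (18.9% of all genes). At least 2-fold higher were 15 genes (10.6% of all genes), and at least 2-fold lower was 1 (10.4% of all genes). The knockdown libraries all lay above the controls in 37 genes (50.8% of all genes) and all below in 9 (36.6% of all genes). These shares describe the contrast that chose the chromosome, and nothing is read from them.

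In SKM-1 the other chromosomes were spread as well. Chromosome 21 led with a median of 0.63 over 88 genes, followed by chromosome 7 at 0.46 over 436 genes and chromosome 6 at 0.46 over 508 genes. At the other end, chromosome 13 had a median of -0.92 over 158 genes and chromosome X one of -0.32 over 320 genes. In MUTZ-1 all chromosome medians lay between -0.049 on chromosome 20 and 0.012 on chromosome 6, and chromosome 21 was number 12 of 23 with a median of -0.014 over 94 genes. The MUTZ-1 SD over genes was 0.69 on chromosome 21, against 0.24 on chromosome 18 to 0.34 on chromosome 3 elsewhere.

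**Figure D2:**
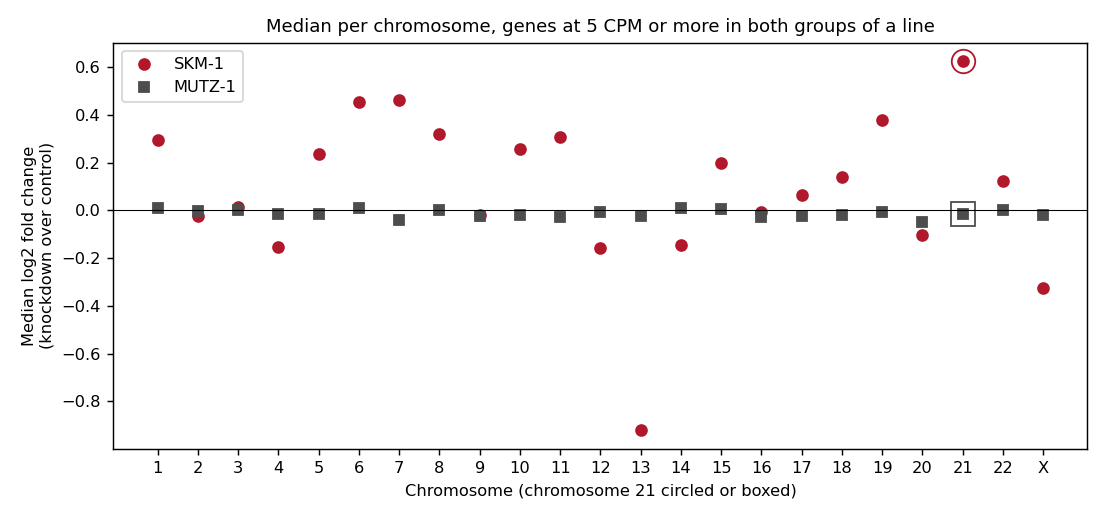
Median log2 fold change (knockdown over control) of all genes at 5 CPM or more in both groups, for each chromosome, in SKM-1 (circles) and MUTZ-1 (squares). SKM-1 medians run between -0.92 on chromosome 13 and 0.63 on chromosome 21, and MUTZ-1 medians between -0.049 and 0.012.

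In MUTZ-1, where the genes were not chosen, their median log2 fold change was 0.03 (interquartile range -0.11 to 0.16), beside -0.01 over all 9515 genes. After knockdown 17 of 52 genes rose, which is 32.7%, beside 27.5% of all genes at this level, and 15 fell, which is 28.8%, beside 32.1% of all genes (edgeR quasi-likelihood test, Benjamini-Hochberg adjustment over all 13625 genes tested). The other 20 did not pass the test. The shares were near those of all genes. By library values alone, 18 genes had all knockdown libraries above all controls, beside 29.7% of all genes, and 18 had them all below, beside 34.6%. The changes that passed were small, with folds between 0.721 and 1.35, and no gene of the list reached 1.5-fold in either direction, beside 3.09% of all genes upward and 1.26% downward.

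Along the long arm, the SKM-1 difference was not even. The genes were divided by map order into a block near the centromere (NRIP1 to DONSON), a middle block (CRYZL1 to PDE9A) and a block near the telomere (WDR4 to PRMT2). In SKM-1 the centromere block had a median of 0.89, with all 15 genes that met the level above 0. APP (-5.11) and HUNK (-6.40) also lie in this block. They met the level in control cells but not in knockdown cells, so the filter left them out. The middle block had a median of 0.07, with 9 genes above and 9 below 0. The telomere block had a median of 0.95, with 17 above and 2 below 0. Over all 9640 genes at this level in SKM-1 the median was 0.13, with 57.6% above and 42.4% below 0. These block values describe the contrast that chose the chromosome, and the blocks were not tested against each other. A running median of 9 neighbours went as low as -0.12 and as high as 1.26.

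The chromosome 21 genes outside the list had no lower median in the middle interval. Their SKM-1 medians over the same intervals, in the same order, were 0.74 over 18 genes, 0.75 over 7 genes and 0.58 over 11 genes, and 0.63 over all 36. The middle value rests on 7 genes. ERG, an unlisted gene of the chromosome, did not enter the SKM-1 medians because of its low level in knockdown cells. It had 2.13 CPM in SKM-1 knockdown cells, against 60.4 CPM in SKM-1 control cells (-4.82). In MUTZ-1 the block medians of the listed genes were -0.02, 0.09 and -0.04. By count, 5 of 16 rose and 6 fell in the centromere block, 7 of 17 rose and 2 fell in the middle block, and 5 of 19 rose and 7 fell in the telomere block, beside 27.5% of all genes higher and 32.1% lower. The unlisted genes had MUTZ-1 medians of -0.06 over 17 genes, 0.12 over 12 genes and -0.21 over 13 genes. Their overall MUTZ-1 median was -0.06, with 11 of 42 higher and 11 lower by the same test. These unlisted genes spread widely, between -5.28 and 2.56 with an SD of 1.01. Both ends were also the lowest and highest values of all 9515 genes in MUTZ-1. Off chromosome 21 the genes ran between -3.01 and 2.19 with an SD of 0.28.

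**Figure D3:**
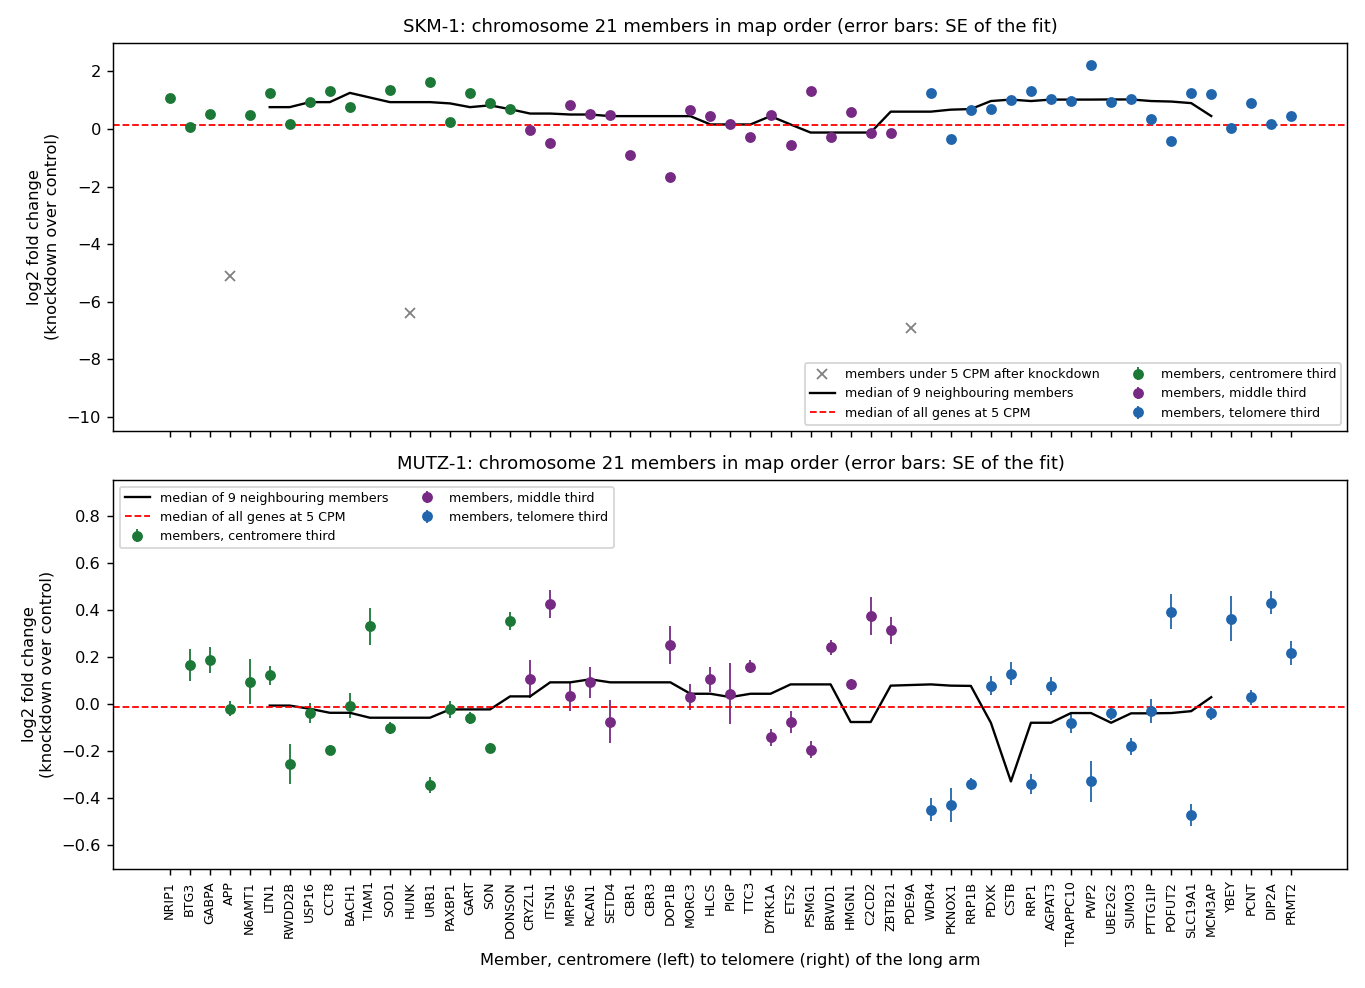
Log2 fold change (knockdown over control) of each gene in map order, centromere at the left, for SKM-1 (top) and MUTZ-1 (bottom), with the SE of the fit as bars, a running median of 9 genes (black) and the median of all genes (red dashes). In SKM-1 the running median runs between -0.12 in the middle and 1.26, and grey crosses mark APP, HUNK and PDE9A, which were under 5 CPM after knockdown, while in MUTZ-1 the running median stays between -0.33 and 0.10.

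Of the 9 ribosome, RNA and translation genes, 1 rose and 6 fell in MUTZ-1 (median -0.33), beside 27.5% of all genes higher and 32.1% lower. In SKM-1 all 9 lay above 0 (median 1.22), beside 57.6% of all genes. No test compared the roles with each other. PWP2, a component of the early small-subunit processome (GRCh38, chr21:44107399-44131181, plus strand), had 14.3, 18.6 and 15.9 CPM in MUTZ-1 knockdown cells, against 20.3, 20.1 and 20.9 CPM in MUTZ-1 control cells. SKM-1 libraries held 29.1, 31.3 and 34.7 CPM in knockdown cells, against 6.24, 6.19 and 7.76 CPM in control cells. The groups did not overlap in either line. The log2 fold change was -0.33 ± 0.09 in MUTZ-1 (SE, n = 3 per group, adjusted p = 5.95e-04) and 2.24 in SKM-1, where it was the highest of the list. Without knockdown library 1 the MUTZ-1 value was -0.22 (adjusted p = 0.0513).

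URB1, a nucleolar scaffold of the large ribosomal subunit precursor, had 99.4, 96.7 and 102 CPM in MUTZ-1 knockdown cells, against 123, 124 and 132 CPM in MUTZ-1 control cells. In SKM-1 there were 229, 218 and 234 CPM in knockdown cells, against 73.2, 75.8 and 72.2 CPM in control cells. Knockdown cells were thus lower than every control in one line and about 3.08 times the control level in the other. Its log2 fold change was -0.34 ± 0.04 in MUTZ-1 (adjusted p = 2.86e-17) and 1.62 in SKM-1, and the URB1 row overlaps that of MRAP.

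The ribosomal RNA processing genes RRP1 and RRP1B are paralogs a short way apart in the telomere block. RRP1 had 62.8, 65.9 and 69.5 CPM in MUTZ-1 knockdown cells, against 85.3, 84.0 and 81.4 CPM in MUTZ-1 control cells, and fell by 0.34 on the log2 scale (adjusted p = 8.38e-13). In SKM-1 it had 148, 142 and 136 CPM in knockdown cells, against 58.4, 57.8 and 54.0 CPM in control cells, a log2 fold change of 1.32. The 3 libraries of each group kept together in both lines. RRP1B had 268, 271 and 272 CPM in MUTZ-1 knockdown cells, against 345, 339 and 343 CPM in MUTZ-1 control cells (-0.34 ± 0.03, adjusted p = 1.92e-28). SKM-1 libraries held 219, 224 and 215 CPM in knockdown cells, against 139, 141 and 133 CPM in control cells (0.67). The paralogs fell by a like amount in MUTZ-1 and lay 0.67 and 1.32 above 0 in SKM-1.

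WDR4, a subunit of a tRNA methyltransferase, had 43.4, 42.3 and 41.7 CPM in MUTZ-1 knockdown cells, against 58.9, 55.7 and 59.2 CPM in MUTZ-1 control cells (-0.45 ± 0.05, adjusted p = 5.66e-15). In SKM-1 there were 79.1, 80.0 and 76.3 CPM in knockdown cells, against 33.0, 31.5 and 34.5 CPM in control cells (1.25). SON, a nuclear speckle protein with a role in splicing, had 714, 723 and 717 CPM in MUTZ-1 knockdown cells, against 829, 807 and 819.5 CPM in MUTZ-1 control cells (-0.19, adjusted p = 3.51e-16). SON in SKM-1 had 676, 675 and 706 CPM in knockdown cells, against 377, 367 and 366 CPM in control cells (0.89). Both genes had separate groups in both lines. MCM3AP, which takes part in mRNA export, had 229, 230.2 and 231 CPM in MUTZ-1 knockdown cells, against 239.5, 233 and 237 CPM in MUTZ-1 control cells, a difference that did not pass the test (-0.04 ± 0.03, adjusted p = 0.215). In SKM-1 MCM3AP had 337, 345 and 344 CPM in knockdown cells, against 143, 147 and 149 CPM in control cells (1.22).

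YBEY, a mitochondrial ribosome assembly factor whose row overlaps that of C21orf58, was the member of this group that rose in MUTZ-1. It had 15.2, 16.9 and 18.9 CPM in MUTZ-1 knockdown cells, against 11.9, 13.9 and 13.9 CPM in MUTZ-1 control cells (0.36 ± 0.10, adjusted p = 6.75e-04). In SKM-1 it had 13.9, 13.6 and 15.3 CPM in knockdown cells, against 14.6, 13.8 and 13.2 CPM in control cells (0.04), and the SKM-1 groups overlapped.

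Of 7 protein folding and turnover genes, 3 rose and 3 fell in MUTZ-1 (median -0.04), beside 27.5% of all genes higher and 32.1% lower, and 6 lay above 0 in SKM-1 (median 1.05), beside 57.6% of all genes. CCT8, a subunit of the cytosolic chaperonin TRiC, had 433, 425 and 433 CPM in MUTZ-1 knockdown cells, against 497, 493 and 491 CPM in MUTZ-1 control cells. In SKM-1 CCT8 had 821, 818 and 803 CPM in knockdown cells, against 324, 328 and 319.8 CPM in control cells. These groups were far apart in both lines, with a log2 fold change of -0.20 ± 0.02 in MUTZ-1 (adjusted p = 1.48e-15) and 1.33 in SKM-1. PSMG1, a chaperone of proteasome assembly, had 101, 101 and 99.6 CPM in MUTZ-1 knockdown cells, against 116, 117 and 113 CPM in MUTZ-1 control cells (-0.19, adjusted p = 7.77e-07). Its SKM-1 values were 179, 173 and 175 CPM in knockdown cells, against 67.1, 70.9 and 70.8 CPM in control cells (1.34), again with separate groups.

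SUMO3, a ubiquitin-like modifier, fell by 0.18 in MUTZ-1 (adjusted p = 9.77e-06) and had a log2 fold change of 1.05 in SKM-1. CSTB, an inhibitor of lysosomal cathepsins, had 52.8, 60.3 and 50.8 CPM in MUTZ-1 knockdown cells, against 50.2, 52.4 and 47.2 CPM in MUTZ-1 control cells (0.13 ± 0.05, adjusted p = 0.0216). These MUTZ-1 groups overlapped, and CSTB stood at 0.12 without control library 3 (adjusted p = 0.0524), at 0.08 without knockdown library 2 (adjusted p = 0.242) and at 0.21 without knockdown library 3, where it passed. In SKM-1 CSTB had 117, 123 and 120.1 CPM in knockdown cells, against 59.95, 57.3 and 60.3 CPM in control cells (1.02). TTC3, an E3 ubiquitin ligase, rose in MUTZ-1 and was the only protein folding and turnover gene below 0 in SKM-1. It had 257, 249.9 and 259.7 CPM in MUTZ-1 knockdown cells, against 229.7, 230.1 and 227 CPM in MUTZ-1 control cells (0.16 ± 0.03, adjusted p = 5.66e-08). SKM-1 libraries held 248, 237 and 247 CPM in knockdown cells, against 298, 304 and 289 CPM in control cells (-0.28).

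Among metabolism and transport genes, 1 of 9 rose and 3 fell in MUTZ-1 (median 0.08), beside 27.5% of all genes higher and 32.1% lower, and 7 of 10 lay above 0 in SKM-1 (median 0.57), beside 57.6% of all genes. SOD1, the cytosolic copper-zinc superoxide dismutase, had 260.0, 241 and 253 CPM in MUTZ-1 knockdown cells, against 270.1, 270.2 and 269 CPM in MUTZ-1 control cells. In SKM-1 SOD1 had 427, 424 and 397 CPM in knockdown cells, against 159.8, 162 and 162 CPM in control cells. The knockdown libraries lay below the MUTZ-1 controls and above the SKM-1 controls, with a log2 fold change of -0.10 ± 0.03 in MUTZ-1 (adjusted p = 4.26e-04) and 1.37 in SKM-1. SOD1 did not pass in MUTZ-1 without knockdown library 2 (-0.05, adjusted p = 0.18) or with library totals alone (-0.06, adjusted p = 0.0689). Per length, SOD1 was the most abundant gene of the list, with a mean of 305 FPKM over the 4 groups, ahead of CCT8 at 237 FPKM.

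GART, a trifunctional enzyme of purine synthesis, had 265, 266 and 267 CPM in MUTZ-1 knockdown cells, against 273, 280.2 and 279 CPM in MUTZ-1 control cells (-0.06 ± 0.02, adjusted p = 0.0397), a call that was lost in 13 other settings, among them the removal of any 1 of the 6 MUTZ-1 libraries (adjusted p = 0.183 to 0.557). In SKM-1 there were 557, 569.6 and 566 CPM in knockdown cells, against 232, 237 and 239 CPM in control cells (1.26). SLC19A1, the reduced folate carrier, had 53.1, 48.3 and 51.4 CPM in MUTZ-1 knockdown cells, against 69.0, 73.5 and 69.7 CPM in MUTZ-1 control cells. This was the lowest log2 fold change of the list in MUTZ-1, at -0.47 ± 0.05 (adjusted p = 6.78e-19). In SKM-1 SLC19A1 had 112, 113 and 114 CPM in knockdown cells, against 49.3, 45.9 and 48.7 CPM in control cells (1.24), and its row overlaps that of COL18A1.

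POFUT2, which adds O-fucose to thrombospondin repeats, had 24.7, 25.1 and 25.4 CPM in MUTZ-1 knockdown cells, against 16.8, 19.8 and 20.8 CPM in MUTZ-1 control cells (0.39, adjusted p = 1.7e-06). In SKM-1 POFUT2 had 32.1, 32.5 and 31.5 CPM in knockdown cells, against 43.0, 42.2 and 43.0 CPM in control cells (-0.42). The groups of POFUT2 were separate in both lines. CBR1, a carbonyl reductase, was near 0 in MUTZ-1, with 2 counts in all MUTZ-1 knockdown libraries and 3 in all MUTZ-1 control libraries. In SKM-1 CBR1 had 23.7, 24.3 and 20.8 CPM in knockdown cells, against 44.2, 42.9 and 42.3 CPM in control cells (-0.91). Its neighbour and paralog CBR3 had 0 counts in all 12 libraries, which at 3 counts allows up to 0.163 to 0.189 CPM per library.

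Of the transcription and chromatin genes, 6 of 14 rose and 1 fell in MUTZ-1 (median 0.06), beside 27.5% of all genes higher and 32.1% lower, and 11 of 15 lay above 0 in SKM-1 (median 0.50), beside 57.6% of all genes. PKNOX1, a TALE homeodomain factor, was the one that fell in MUTZ-1, and it was also below 0 in SKM-1. It had 27.7, 22.3 and 22.2 CPM in MUTZ-1 knockdown cells, against 30.8, 34.0 and 32.4 CPM in MUTZ-1 control cells (-0.43, adjusted p = 7.42e-08). SKM-1 libraries held 17.0, 18.5 and 19.8 CPM in knockdown cells, against 23.1, 23.2 and 24.0 CPM in control cells (-0.34). PKNOX1 and ETS2 were the only genes of the 50 with a negative log2 fold change in both lines.

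ETS2, an ETS family factor, had 51.6, 56.4 and 53.9 CPM in MUTZ-1 knockdown cells, against 56.7, 57.5 and 56.5 CPM in MUTZ-1 control cells (-0.08 ± 0.05, adjusted p = 0.182). In SKM-1 ETS2 had 50.8, 55.3 and 50.01 CPM in knockdown cells, against 77.1, 75.8 and 77.9 CPM in control cells (-0.56). HMGN1, a nucleosome-binding protein, had 588, 565 and 575 CPM in MUTZ-1 knockdown cells, against 534, 549 and 549.6 CPM in MUTZ-1 control cells (0.08, adjusted p = 5.98e-04), and with library totals alone the change was 0.13. Its SKM-1 values were 387, 370.02 and 367 CPM in knockdown cells, against 245, 248 and 247 CPM in control cells (0.60). HMGN1 was thus higher in all knockdown libraries of both lines.

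GABPA, another ETS family factor, has a row that overlaps that of ATP5PF, and it had 99.6, 104 and 102 CPM in MUTZ-1 knockdown cells, against 94.4, 78.8 and 94.6 CPM in MUTZ-1 control cells (0.19, adjusted p = 0.0078). Its SKM-1 values were 47.2, 42.2 and 51.8 CPM in knockdown cells, against 32.9, 33.2 and 32.4 CPM in control cells (0.52). BRWD1, a bromodomain protein, rose by 0.24 in MUTZ-1 (adjusted p = 1.4e-11) and had a log2 fold change of -0.27 in SKM-1. PRMT2, an arginine methyltransferase at the telomere end, had 47.5, 52.0 and 48.8 CPM in MUTZ-1 knockdown cells, against 43.1, 41.9 and 42.5 CPM in MUTZ-1 control cells (0.22, adjusted p = 1.02e-04). In SKM-1 PRMT2 had 99.3, 95.9 and 99.2 CPM in knockdown cells, against 71.4, 71.6 and 72.3 CPM in control cells (0.45), and its groups were separate in both lines. BACH1, a repressor that senses haem, had 44.0, 42.4 and 45.4 CPM in MUTZ-1 knockdown cells, against 45.2, 44.8 and 42.7 CPM in MUTZ-1 control cells (-0.01, adjusted p = 0.963). In SKM-1 BACH1 had 76.6, 76.98 and 75.5 CPM in knockdown cells, against 44.3, 45.6 and 45.4 CPM in control cells (0.76). The MUTZ-1 groups of BACH1 overlapped.

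USP16, which removes ubiquitin from histone H2A, had 76.0, 79.0 and 78.4 CPM in MUTZ-1 knockdown cells, against 83.7, 77.6 and 78.2 CPM in MUTZ-1 control cells (-0.04, adjusted p = 0.481). In SKM-1 USP16 had 98.8, 93.7 and 99.1 CPM in knockdown cells, against 51.3, 49.5 and 51.8 CPM in control cells (0.93). The MUTZ-1 groups of USP16 overlapped as well. N6AMT1, a methyltransferase, had 13.6, 13.4 and 13.2 CPM in MUTZ-1 knockdown cells, against 13.2, 12.6 and 11.8 CPM in MUTZ-1 control cells, and 23.8, 22.6 and 25.4 CPM in SKM-1 knockdown cells, against 16.7, 16.9 and 17.1 CPM in SKM-1 control cells. NRIP1, a nuclear receptor corepressor and the gene nearest the centromere, had 5 counts in all MUTZ-1 knockdown libraries and 1 in all MUTZ-1 control libraries. In SKM-1 it averaged 86.3 ± 5.18 CPM in knockdown cells and 41.1 ± 1.54 CPM in control cells (1.07).

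Among the signalling, trafficking and surface genes, 5 of 11 rose and 1 fell in MUTZ-1 (median 0.09), beside 27.5% of all genes higher and 32.1% lower, and 6 of 9 lay above 0 in SKM-1 (median 0.35), beside 57.6% of all genes. APP (-5.11) and HUNK (-6.40) have this role too. Both are missing from the SKM-1 count and median because they were under 5 CPM in knockdown cells, though not in control cells. ITSN1, a scaffold of endocytosis, had 43.7, 48.4 and 42.9 CPM in MUTZ-1 knockdown cells, against 35.7, 32.1 and 32.8 CPM in MUTZ-1 control cells (0.42 ± 0.06, adjusted p = 9.8e-11). In SKM-1 ITSN1 had 34.3, 37.6 and 37.4 CPM in knockdown cells, against 50.1, 51.6 and 50.2 CPM in control cells (-0.48). DIP2A had the highest log2 fold change of the list in MUTZ-1, with 61.7, 62.4 and 57.4 CPM in MUTZ-1 knockdown cells, against 44.2, 45.7 and 44.7 CPM in MUTZ-1 control cells (0.43 ± 0.05, adjusted p = 5.25e-15). The SKM-1 values of DIP2A were 80.7, 78.2 and 83.4 CPM in knockdown cells, against 72.6, 73.7 and 70.1 CPM in control cells (0.16).

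C2CD2, which carries a C2 domain, had 21.4, 20.7 and 17.4 CPM in MUTZ-1 knockdown cells, against 15.2, 15.1 and 15.6 CPM in MUTZ-1 control cells (0.37, adjusted p = 2.73e-05). Its SKM-1 values were 39.04, 38.6 and 36.6 CPM in knockdown cells, against 39.8, 40.9 and 43.7 CPM in control cells (-0.12), so that both lines had separate groups. DOP1B, a protein of membrane trafficking, had the lowest log2 fold change among the 52 in SKM-1. It had 5.14, 4.73 and 5.96 CPM in SKM-1 knockdown cells, against 17.0, 16.1 and 16.7 CPM in SKM-1 control cells (-1.65), so its knockdown libraries sat at the edge of the level filter. In MUTZ-1 it had 26.5, 25.4 and 25.2 CPM in knockdown cells, against 22.3, 22.5 and 20.1 CPM in control cells (0.25, adjusted p = 0.00533). DOP1B thus lay on opposite sides of the controls in the lines.

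DYRK1A, a kinase studied for its dosage in Down syndrome, had 103, 109 and 105 CPM in MUTZ-1 knockdown cells, against 111, 119 and 122 CPM in MUTZ-1 control cells (-0.14, adjusted p = 4.49e-04). Without control library 3 it stood at -0.08 in MUTZ-1 (adjusted p = 0.101). Its SKM-1 values were 101, 99.3 and 104 CPM in knockdown cells, against 70.1, 74.5 and 71.9 CPM in control cells (0.49). RCAN1, an inhibitor of calcineurin, had 32.3, 36.1 and 36.5 CPM in MUTZ-1 knockdown cells, against 31.0, 33.9 and 33.6 CPM in MUTZ-1 control cells, and 35.9, 36.1 and 32.0 CPM in SKM-1 knockdown cells, against 25.1, 22.7 and 23.8 CPM in SKM-1 control cells. Its MUTZ-1 groups overlapped, and it did not pass the test there (0.09, adjusted p = 0.25), except without knockdown library 1 (0.17, adjusted p = 0.042), and stood at 0.54 in SKM-1. Of the last 2 genes, DONSON, which acts at replication forks, rose by 0.35 in MUTZ-1 (adjusted p = 8.89e-16) and stood at 0.69 in SKM-1, and RWDD2B fell by 0.25 in MUTZ-1 (adjusted p = 0.00706) and stood at 0.19 in SKM-1. RWDD2B had 17.9, 19.2 and 18.3 CPM in MUTZ-1 knockdown cells, against 21.9, 21.6 and 22.6 CPM in MUTZ-1 control cells, and 14.8, 18.6 and 15.8 CPM in SKM-1 knockdown cells, against 14.3, 16.2 and 12.8 CPM in SKM-1 control cells. Its SKM-1 groups overlapped, and in MUTZ-1 it did not pass without control library 3 (-0.20, adjusted p = 0.0728) or knockdown library 1 (-0.20, adjusted p = 0.0644).

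Of the remaining genes, 4 rose in MUTZ-1. TIAM1, an exchange factor of the GTPase Rac, had 34.7, 35.8 and 32.5 CPM in MUTZ-1 knockdown cells, against 27.6, 26.4 and 27.9 CPM in MUTZ-1 control cells (0.33 ± 0.08, adjusted p = 1.53e-04), and held 2 counts in all SKM-1 knockdown libraries and 6 in all SKM-1 control libraries. ZBTB21, a zinc finger protein, rose by 0.31 in MUTZ-1 (adjusted p = 6.19e-07) and stood at -0.15 in SKM-1. LTN1, a ubiquitin ligase of ribosome quality control, rose by 0.12 (adjusted p = 0.00686) and stood at 1.26 in SKM-1, where it averaged 126 ± 3.44 CPM in knockdown cells and 52.7 ± 3.03 CPM in control cells. BTG3, an antiproliferative protein whose row overlaps that of CXADR, rose by 0.17 (adjusted p = 0.0357) and stood at 0.08 in SKM-1.

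The other 13 did not pass the test in MUTZ-1, with log2 fold changes between -0.08 and 0.11. In SKM-1 the highest of them were AGPAT3, an acyltransferase of phospholipid synthesis, at 1.03, the trafficking complex subunit TRAPPC10 at 0.97, the ubiquitin-conjugating enzyme UBE2G2 at 0.95 and the centrosome protein PCNT at 0.90. The mitochondrial ribosomal protein MRPS6, whose row overlaps that of SLC5A3, stood at 0.82, the pyridoxal kinase PDXK at 0.69 and MORC3, an ATPase of nuclear bodies, at 0.65. The methyltransferases N6AMT1 and SETD4 stood at 0.50 each, and the biotin ligase HLCS, whose row overlaps that of SIM2, at 0.45. PTTG1IP stood at 0.35, PAXBP1 at 0.25 and CRYZL1 at -0.03, so that 12 of the 13 lay above 0 in SKM-1.

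The largest SKM-1 differences on the list lay outside the level filter. APP, the amyloid precursor protein (GRCh38, chr21:25880550-26171128, minus strand), had 3.45, 3.47 and 4.90 CPM in SKM-1 knockdown cells, against 133, 141 and 135 CPM in SKM-1 control cells, which is 34.6-fold lower. In MUTZ-1 APP had 168, 161 and 160.2 CPM in knockdown cells, against 167, 165 and 165 CPM in control cells (-0.02, adjusted p = 0.644). APP thus lost nearly all its mRNA in one line and did not pass the test in the other. HUNK, a kinase, had 5 counts in all SKM-1 knockdown libraries, against 498 in all SKM-1 control libraries, and PDE9A, a cyclic GMP phosphodiesterase, 1 count against 179. PDE9A was under 5 CPM in both SKM-1 groups, but APP and HUNK passed in control cells and were left out because of their low level in knockdown cells. With 5 CPM asked of either group instead, which was chosen after seeing the data, 54 genes entered and the SKM-1 median was 0.57.

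**Figure D4:**
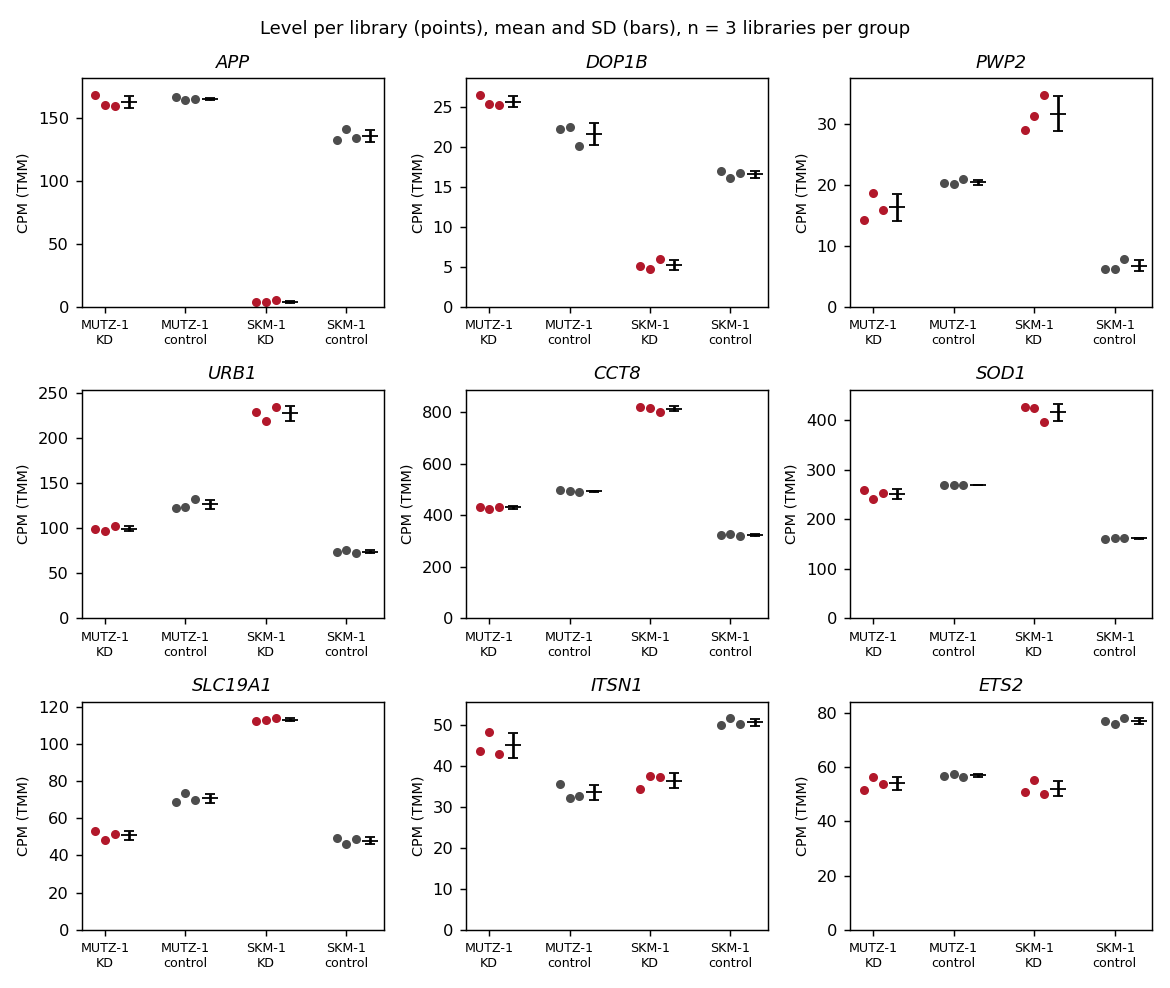
CPM scaled by TMM factors of 9 chromosome 21 genes in each library (points), with the mean and SD of 3 libraries beside them, knockdown left of control in each line. In SKM-1, PWP2, URB1, CCT8, SOD1 and SLC19A1 are higher and APP, DOP1B, ITSN1 and ETS2 lower in all knockdown libraries, and in MUTZ-1 PWP2, URB1, CCT8, SOD1 and SLC19A1 are lower and DOP1B and ITSN1 higher.

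At the edges of the level rule, the MUTZ-1 genes just outside were CBR1, at 0.0404 CPM before scaling factors in its lower group, and HUNK at 2.32 CPM, and those just inside were PIGP at 6.73 CPM and N6AMT1 at 12.03 CPM. In SKM-1, HUNK at 0.102 CPM and APP at 3.93 CPM lay just outside, and DOP1B at 5.26 CPM and PWP2 at 7.09 CPM just inside.

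Over the 50 genes measured in both lines, the log2 fold changes ran against each other, with Pearson r = -0.56 and Spearman rho = -0.59, where each point is a gene and all points share the same libraries. Over all 8509 genes measured in both lines the values were -0.26 and -0.27. Of the 15 genes that fell in MUTZ-1, 14 lay above 0 in SKM-1, with a median of 1.25. Of the 16 that rose in MUTZ-1 and were measured in both lines, 9 lay above and 7 below 0 in SKM-1, with a median of 0.06. The 19 that did not pass the test in MUTZ-1 had an SKM-1 median of 0.65. Over all 9640 genes at 5 CPM in SKM-1, 57.6% lay above 0 and the median was 0.13. The same split by MUTZ-1 call was not made over all genes, and nothing is read from it. By sign alone, 22 of the 50 genes lay below 0 in MUTZ-1 and above 0 in SKM-1, and 2 below 0 in both. Over all 8509 genes these counts were 3091 and 1531. Above 0 in MUTZ-1, 18 of the 50 lay above and 8 below 0 in SKM-1, beside 1787 and 2100 of all genes. In 15 of the 50 genes the knockdown libraries were all lower than the controls in MUTZ-1 and all higher in SKM-1, beside 23.2% of all 8509 genes, and in 6 they were all higher in MUTZ-1 and all lower in SKM-1, beside 14.2%. The SKM-1 side of these counts was fixed by the choice of the chromosome.

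**Figure D5:**
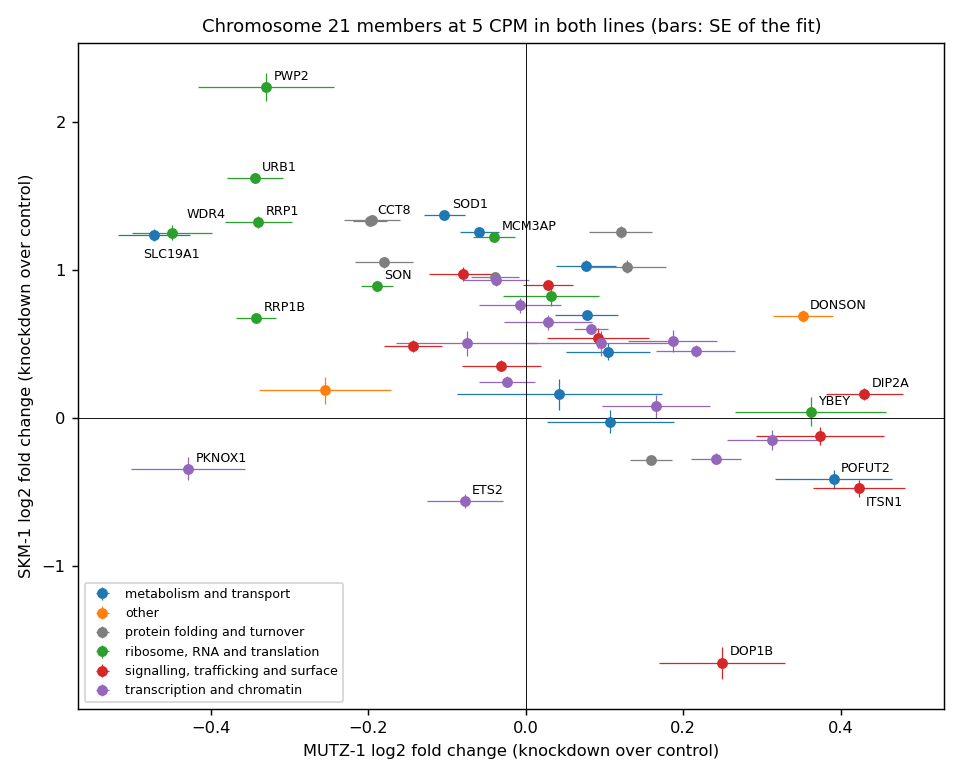
Log2 fold change (knockdown over control) of the 50 chromosome 21 genes at 5 CPM or more in both lines, MUTZ-1 on the horizontal and SKM-1 on the vertical axis, coloured by role, with the SE of the fit as bars. Ribosome and RNA genes such as PWP2, URB1 and RRP1 lie at the upper left, and ITSN1, POFUT2 and DOP1B at the lower right.

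More abundant genes of the list stood higher in SKM-1. Across the 52 genes the Spearman correlation of the log2 fold change with the mean level was 0.50 in SKM-1, beside 0.10 over all genes, and -0.30 in MUTZ-1, beside -0.24 over all genes. With the length of the gene's span it was -0.14 in SKM-1 (-0.13 over all genes) and 0.24 in MUTZ-1 (0.16 over all genes). These are descriptions across genes of the same libraries, and level enters the fold change itself.

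Genes that start back to back, within a short stretch of DNA, show how far immediate neighbours went together. The stretches between the annotated spans of such pairs are printed because they are the DNA that both genes face. The start sites used for the promoter windows lie 146 bases apart for GART and SON, but 451 apart for PIGP and TTC3 and 731 apart for MCM3AP and YBEY, so PIGP and MCM3AP start further inside their spans there. They come from RefSeq on GRCh38.p14, plus strand, 5′ to 3′. Capitals mark CCAAT or its reverse ATTGG, and the ETS core CCGGAAG or its reverse CTTCCGG, and the GC box GGGCGG was also searched on both strands. The first lies between GART and SON (chr21:33542894-33543037), the second between PIGP and TTC3 (chr21:37073072-37073253), and the third between MCM3AP and YBEY (chr21:46286266-46286341). The last is the stretch before PWP2, the gene with the highest SKM-1 fold (chr21:44107149-44107398).
GART and SON: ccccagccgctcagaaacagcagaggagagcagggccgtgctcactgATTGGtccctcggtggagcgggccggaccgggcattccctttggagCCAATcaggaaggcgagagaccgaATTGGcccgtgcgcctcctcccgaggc
PIGP and TTC3: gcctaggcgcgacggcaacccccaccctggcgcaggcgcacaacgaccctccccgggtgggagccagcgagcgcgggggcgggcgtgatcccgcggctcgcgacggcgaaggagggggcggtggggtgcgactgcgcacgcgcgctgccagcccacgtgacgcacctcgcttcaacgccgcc
MCM3AP and YBEY: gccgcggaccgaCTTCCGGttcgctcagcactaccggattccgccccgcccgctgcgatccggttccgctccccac
PWP2: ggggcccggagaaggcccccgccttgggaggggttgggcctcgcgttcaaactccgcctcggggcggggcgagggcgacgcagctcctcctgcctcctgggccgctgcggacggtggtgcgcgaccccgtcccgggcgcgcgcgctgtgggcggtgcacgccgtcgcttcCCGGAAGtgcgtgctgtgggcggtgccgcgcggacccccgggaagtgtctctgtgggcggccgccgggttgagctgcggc

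The GART and SON stretch of 144 bases held 3 CCAAT letters on either strand and no ETS core, and both genes stood above 0 in SKM-1 (1.26 and 0.89) and below 0 in MUTZ-1 (-0.06 and -0.19). The MCM3AP and YBEY stretch of 76 bases held 1 ETS core and 2 GC boxes, and its genes parted in SKM-1, with 1.22 for MCM3AP and 0.04 for YBEY. In MUTZ-1 these stood at -0.04 and 0.36. The PIGP and TTC3 stretch of 182 bases held 2 GC boxes and neither of the capitalised motifs, with log2 fold changes of 0.16 for PIGP and -0.28 for TTC3 in SKM-1, and 0.04 and 0.16 in MUTZ-1. PIGP, an enzyme of GPI anchor synthesis, had 8.497, 6.68 and 6.49 CPM in MUTZ-1 knockdown cells, against 7.59, 6.15 and 7.30 CPM in MUTZ-1 control cells (adjusted p = 0.838), and 14.2, 17.4 and 13.03 CPM in SKM-1 knockdown cells, against 14.9, 12.6 and 12.4 CPM in SKM-1 control cells. Its groups overlapped in both lines. Another pair, CRYZL1 and ITSN1, has 759 bases between the spans, and stood at -0.03 and -0.48 in SKM-1 and at 0.11 and 0.42 in MUTZ-1.

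RefSeq promoter windows of 300 bases (250 before and 50 after the start) were found for 49 of the genes. The ETS core was in 26.5% of them, against 18.5% of the windows of 11114 tested genes and 10.7% of all 27305 windows. The GC box was in 69.4%, against 68.8% and 44.6%, and CCAAT in 36.7%, against 36.8% and 35.7%. The matches are descriptions of letters in these windows.

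Beside the SKM-1 difference, markers of the red cell lineage also differed. All 10 erythroid markers were over 5 CPM in SKM-1 knockdown cells and 9 in SKM-1 control cells, and their summed level was 4013 to 4077 CPM in knockdown libraries, against 1077 to 1099 CPM in control libraries. In MUTZ-1 3 were over 5 CPM in each group, with sums of 314 to 319 CPM in knockdown and 743 to 763 CPM in control libraries. The MUTZ-1 sum is mostly TFRC, the transferrin receptor gene, at 291 CPM in knockdown cells and 736 CPM in control cells. TFRC was the 1 erythroid marker that fell there, while 3 passed the test upward (EPOR, ANK1 and KLF1). KLF1 was near 0 in both MUTZ-1 groups, at 0.23 CPM in knockdown cells and 0.058 CPM in control cells, so its fold change is not usable. The myeloid sum was 101.5 to 111.2 CPM in SKM-1 knockdown libraries, against 32.5 to 35.1 CPM in SKM-1 control libraries. It was 72.5 to 81.2 CPM in MUTZ-1 knockdown libraries, against 83.4 to 95.2 CPM in MUTZ-1 control libraries. The MUTZ-1 myeloid sum is mostly SPI1, at 69.7 CPM in knockdown cells and 79.9 CPM in control cells. The B lineage sum was 1740 to 1791 CPM in MUTZ-1 knockdown libraries, against 2089 to 2096 CPM in MUTZ-1 control libraries. It was 10.1 to 11.3 CPM in SKM-1 knockdown libraries, against 11.0 to 16.4 CPM in SKM-1 control libraries. The part of these lineage markers in the chromosome 21 values was not tested.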

How the data were processed

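RNA was sequenced from 12 libraries, 3 for each of 4 groups. Per the labels' protocols, total RNA was extracted with TRIzol and libraries were made with a stranded mRNA kit, and per the submitters' processing notes fastp, HISAT2, HTSeq and the build GRCh38 were used, with no versions given in the sources used here. The strand setting of the counting was not given either, so counts of the 7 genes of the list that overlap another row are uncertain. The authors deposited whole-number counts per gene in one table and FPKM values per gene in another. Chromosomes and positions came from RefSeq on GRCh38.p14, which matched 17421 of 17518 rows (17176 by symbol and 245 by an older symbol).

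Counts of all 12 libraries were fitted with edgeR 4.0.16 in R 4.3.3 (TMM factors, filterByExpr, robust glmQLFit, 1 mean per group, 8 residual degrees of freedom), and p-values were adjusted by Benjamini-Hochberg over the 13625 genes tested and called under 0.05. The fit was tested on simulated counts with known changes. Folds and medians are taken over genes at 5 CPM or more in both groups of a line. FPKM served for levels between genes and for limma 3.58.1 on log2 of FPKM plus 1 or 0.1. DESeq2 1.42.0, other scaling, filters, a replicate block and leaving out each library were alternatives. Each library counted as 1. Libraries of the same group were further apart than counting noise gives (chi-square per degree of freedom 1.67 to 2.28). This spread cannot tell separate cultures from separate library preparations of the same RNA.

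The genes, roles, marker lists and tests were chosen with earlier results of these data known. Genes with a value in every library are those with the 5 highest and 5 lowest changes in each line and the 5 highest FPKM, together with a set of well known genes of the chromosome and those next to the level of 5 CPM, except that genes near 0 are given by counts. Other genes are given by mean or fold change, and TIAM1, outside this rule, by library after its values were seen. The SKM-1 contrast chose the chromosome and was not tested, nor was a difference between the lines.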

Additional observations from a re-analysis of the deposited data

Results flagged for a closer look

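In 18 of the 32 genes given with values that were measured in both lines, every knockdown library lay on one side of the controls in MUTZ-1 and on the other side in SKM-1. Many of the 32 were named because their change in a line was among the highest or lowest, which favours such pairs, and over all 8509 genes measured in both lines 23.2% were lower in MUTZ-1 and higher in SKM-1 and 14.2% the reverse. The difference between the lines was not tested, since the SKM-1 contrast chose the chromosome. Values are the MUTZ-1 minus the SKM-1 log2 fold change.

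In 13 genes the knockdown libraries were lower than the controls in MUTZ-1 and higher in SKM-1. From the widest gap down, PWP2 stood at -2.57, URB1 at -1.97, SLC19A1 at -1.71, WDR4 at -1.70 and RRP1 at -1.66. PSMG1 and CCT8 stood at -1.53 each, SOD1 at -1.47, GART at -1.32, MCM3AP at -1.26, SON at -1.08, RRP1B at -1.01 and DYRK1A at -0.63.

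In 5 genes the knockdown libraries were higher than the controls in MUTZ-1 and lower in SKM-1. DOP1B stood at 1.90, ITSN1 at 0.90, POFUT2 at 0.81, C2CD2 at 0.50 and TTC3 at 0.44.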

How the results depend on the processing

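The count of MUTZ-1 genes that rose was 17 to 21 and of those that fell 10 to 15 under every alternative run, and without each replicate in turn 17 to 21 and 12 to 14. The MUTZ-1 median of 0.03 was 0.051 with DESeq2 size factors, 0.051 with DESeq2, 0.076 with library totals alone, 0.070 on log2(FPKM + 1), 0.076 on log2(FPKM + 0.1) and 0.070 on log2(FPKM + 1) with no filter. It was -0.0074 at 20 CPM or more and -0.014 over all chromosome 21 genes, and 0.029 to 0.071 without each replicate, with 0.071 without control library 3 and 0.050 without knockdown library 3. The SKM-1 median of 0.63 was 0.544 with library totals alone, 0.519 on log2(FPKM + 1) with or without a filter, 0.542 on log2(FPKM + 0.1), 0.691 at 20 CPM or more, 0.570 at 5 CPM in either group, which was chosen after seeing the data, and 0.589 to 0.629 without each replicate. Library totals alone moved the all-gene median to 0.035 in MUTZ-1 and 0.044 in SKM-1. Relative to the median of all genes, the SKM-1 median stood 0.477 to 0.521 higher under every setting. The MUTZ-1 median stood 0.041 above that of all genes in the main run, with DESeq2 size factors and with library totals alone. Its difference from all genes ran between -0.0018 and 0.050 over the settings. The cause of these shifts was not tested. The replicate numbers did not pair the libraries. For same-numbered knockdown and control libraries of a line, the deviations of each gene from its group mean correlated between -0.023 and 0.006. For libraries with different numbers these correlations ran between -0.014 and 0.029. A replicate block gave 17 higher, 15 lower and medians of 0.0287 and 0.625.

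For single genes in MUTZ-1, 458 of 524 alternatives kept direction and call, 31 lost the call, 1 gained it (RCAN1) and 34 turned the sign. The 6 genes that turned (APP, BACH1, MCM3AP, USP16, PIGP and CBR1) passed the test neither before nor after. APP stood at 0.0014 with DESeq2 size factors, 0.0013 with DESeq2, 0.027 with library totals alone, 0.026 on log2(FPKM + 1) with or without a filter and 0.026 on log2(FPKM + 0.1). BACH1 stood at 0.015 with DESeq2 size factors, 0.015 with DESeq2, 0.040 with library totals, 0.035 on log2(FPKM + 1) with or without a filter and 0.039 on log2(FPKM + 0.1). MCM3AP stood at 0.0075 with library totals, 0.0075 on log2(FPKM + 1) with or without a filter and 0.0077 on log2(FPKM + 0.1), and USP16 at 0.0097, 0.0107 and 0.0112 in the same order. Without each replicate APP ran between -0.018 and 0.021, BACH1 between -0.0038 and 0.041, USP16 between -0.035 and 0.022, PIGP between -0.067 and 0.14 and CBR1 between -0.80 and 0.098. GART lost its call in 13 (adjusted p 0.057 to 0.76), SOD1 and RWDD2B in 5 each, DYRK1A in 4, and CSTB and PWP2 in 2 each. With 3 libraries a group, genes with few counts, such as NRIP1 and CBR1 in MUTZ-1, carry no usable fold change.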
